A study of Mus musculus with 2 samples.

Results

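The gasdermin genes Gsdmc, Gsdmc2, Gsdmc3, Gsdmc4, Gsdmd, Gsdme and Gsdma were followed along colonocyte differentiation in single-cell RNA sequencing of mouse colonic crypts. They were taken by symbol and make up 7 of the 31053 genes measured. Each animal was a C57BL/6 mouse of 4 weeks with floxed Mettl14 alleles, written M14(f/f) in the labels. The control library came from mice with those alleles alone, and the Mettl14_cKO library from floxed mice with Villin-Cre, which puts the Cre recombinase under a promoter active in gut epithelium. Mettl14 is a subunit of the enzyme that adds N6-methyladenosine to RNA, and the series title links that mark on GsdmC to stem cell survival. Cells of 3 mice were pooled per genotype before capture, which left 1 library per genotype. No test or error between animals was therefore possible, and each interval below is a 95% interval that covers counting error only.

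Gasdermins are held inactive by their own carboxy-terminal domain. A protease cuts the linker, and the freed amino-terminal domain forms pores in the plasma membrane, which releases cytokines and can end in lytic death. The members differ in the proteases that cut them: inflammatory caspases cut Gsdmd and caspase-3 cuts Gsdme. Colonocytes are the absorptive cells of the colon, born in the crypt and shed from the surface. The gut epithelium is a known site of gasdermin C RNA, which type 2 cytokines raise in the intestine.

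The 4 gasdermin C genes are neighbours on the minus strand of chromosome 15. Gsdmc (ENSMUSG00000079025) lies at chr15:63775968-63808759, Gsdmc2 (ENSMUSG00000056293) at chr15:63824346-63845177, Gsdmc3 (ENSMUSG00000055827) at chr15:63857724-63878558 and Gsdmc4 (ENSMUSG00000055748) at chr15:63891264-63912297. Gsdmd (ENSMUSG00000022575) is on the plus strand of the same chromosome, at chr15:75862327-75867408. Gsdme (ENSMUSG00000029821) is at chr6:50188888-50263862 on the minus strand and Gsdma (ENSMUSG00000017204) at chr11:98664351-98677708 on the plus strand. These positions are from GENCODE M21 on GRCm38. For the deposited counts, no build is given in the sources used here.

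The coding sequences show why the C genes were also summed. Gsdmc2 and Gsdmc3 have 1440 coding bases each and were identical at 97.1% of them. Gsdmc4 was identical to Gsdmc2 at 93.7% of aligned bases and to Gsdmc3 at 93.8%. Gsdmc stood further off at 86.3% to 87.5%. Between the C genes and Gsdmd, Gsdme or Gsdma identity was 50% to 54.0%. The last 90 coding bases before the stop codon, from the GENCODE M21 transcripts, show how little sequence separates the 3 genes with appreciable counts. Capitals mark bases that differ from Gsdmc4, 3 in Gsdmc2 and 4 in Gsdmc3:
Gsdmc4: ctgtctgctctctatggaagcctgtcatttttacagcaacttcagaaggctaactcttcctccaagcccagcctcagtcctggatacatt
Gsdmc2: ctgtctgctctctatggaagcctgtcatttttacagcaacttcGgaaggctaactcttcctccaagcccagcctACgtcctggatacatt
Gsdmc3: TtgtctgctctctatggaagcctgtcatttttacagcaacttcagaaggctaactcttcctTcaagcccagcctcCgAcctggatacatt
Reads within such stretches can be split between the genes by the authors' counting, so each single C gene is less certain than the summed UMIs of the 4, called the Gsdmc sum here. A UMI is a tag that marks 1 captured RNA molecule, and levels are given in CPM, the UMIs of a gene per 1000000 UMIs of the same cells.

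The libraries held 111239295 (control) and 89729527 UMIs (Mettl14_cKO). Of the cells kept, 8706 control and 6049 Mettl14_cKO cells were epithelial-like, with medians of 10405 and 8702 UMIs. The libraries shared 33 cell barcodes. Mettl14 itself stood at 4.76 CPM in control (4.36 to 5.19) and 5.06 in Mettl14_cKO epithelial-like cells (4.58 to 5.57). Which exons were floxed and which transcript end was read was not given in the sources used here, so these counts do not check the genotype label. Xist was at 0.0629 and 338 CPM and 4 Y chromosome genes together at 104 and 0.0780, so genotype and the sex of the pooled mice cannot be told apart. Fibroblast, endothelial and glial markers each summed to under 4 CPM in the epithelial-like cells of both libraries.

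Over all epithelial-like cells the gasdermin C genes were the members that were lower in Mettl14_cKO, Gsdmd and Gsdme were close to level, and Gsdma was higher. The Gsdmc sum was 334 CPM in control (330 to 337) and 28.5 in Mettl14_cKO (27.3 to 29.6), 11.7-fold lower (11.2 to 12.2). Gsdmd, the main executor of caspase-1 pyroptosis, was at 45.9 (44.6 to 47.2) and 43.0 CPM (41.6 to 44.5). Gsdme was at 22.6 (21.7 to 23.5) and 23.9 (22.9 to 25). Gsdma was at 0.380 (0.273 to 0.515) and 5.26 (4.78 to 5.78), from 41 and 434 UMIs. Gsdmc itself had 2 UMIs in control and 0 in Mettl14_cKO. UMI levels are not corrected for transcript length, so they are compared between libraries and not ranked between unlike genes.

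T or NK-like cells, which should lack gasdermin C, were used as a guide to the level that free RNA can leave in a droplet. They were shallower than the epithelial-like cells, and the part of undetected doublets in their counts was not tested. The Gsdmc sum in them was 52.8 CPM in control (37.4 to 72.5; 356 cells, median 1624 UMIs) and 6.01 in Mettl14_cKO (2.21 to 13.1; 393 cells, median 1939 UMIs). Gsdmd stood at 15.3 and 21 CPM in these cells and Gsdme at 4.17 and 7.01. Control values of the Gsdmc sum near 53 CPM are therefore at the level of cells that should lack it. Deeper control epithelial-like cells went lower, to 17.6 CPM (15.8 to 19.5) in cluster 0 (1437 cells, median 12989 UMIs). The T or NK-like level is thus not a floor for them.

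To relate the members to maturity, each cell was thinned at random to 2000 UMIs. This left 7630 control and 5201 Mettl14_cKO cells, while 1076 and 848 epithelial-like cells were shallower. Maturity was the number of Krt20, Slc26a3 and Guca2a UMIs among the 2000. Krt20 is a keratin of surface cells, Slc26a3 the chloride and bicarbonate exchanger of the brush border, and Guca2a the peptide guanylin. Cells were put in ranges of 0, 1, 2 to 3, 4 to 7, and 8 or more. The control cells numbered 3607, 1569, 1194, 735 and 525 in that order, and the Mettl14_cKO cells 4029, 645, 275, 177 and 75. The ranges are parts of a score and not cell types: 205 control and 36 Mettl14_cKO cells had 7 or 8 UMIs, on either side of the highest cut.

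In control epithelial-like cells the Gsdmc sum was higher in mature cells but not highest in the most mature. It stood at 181 CPM at maturity 0 (171 to 191), 236 at 1 (219 to 253) and 325 at 2 to 3 (303 to 349). It then reached 559 at 4 to 7 (521 to 598) and 399 at 8 or more (362 to 439). The highest range was 2.21 times the lowest, and the range of 4 to 7 was 1.40 times the highest range (1.24 to 1.58). The share of control cells with at least 1 Gsdmc UMI followed the same order, at 18.4%, 19.9%, 24.5%, 36.5% and 32.8%.

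In Mettl14_cKO cells the Gsdmc sum was far lower in every range. The Gsdmc sum was 17.5 CPM at maturity 0 (14.7 to 20.6), 30.2 at 1 (21.5 to 41.3), 34.5 at 2 to 3 (20.8 to 53.9), 25.4 at 4 to 7 (11.6 to 48.3) and 20 at 8 or more (4.12 to 58.4). The last 2 values rest on 9 and 3 UMIs. By counting intervals alone, maturity 1 and 2 to 3 lay above 0. The shares of cells with a Gsdmc UMI overlapped there, at 2.76% for maturity 0 (2.27 to 3.31), 4.34% for 1 (2.90 to 6.21) and 4.73% for 2 to 3 (2.54 to 7.95). No order among the Mettl14_cKO ranges was therefore settled at this depth. The Mettl14_cKO maximum, at 2 to 3, was 1.97 times its level at maturity 0 (1.15 to 3.20). The control maximum, at 4 to 7, was 3.09 times its level at maturity 0 (2.83 to 3.37), and the 2 intervals overlap. Every Mettl14_cKO range was lower than its control counterpart, by 10.3-fold (8.68 to 12.4), 7.79-fold (5.64 to 11), 9.42-fold (5.99 to 15.7), 22-fold (11.5 to 48.2) and 20-fold (6.78 to 97.1). With both libraries weighted to 1 common distribution of maturity, the sum was 239 in control and 22 in Mettl14_cKO, a log2 difference of -3.44 (-3.66 to -3.22). This is 10.8-fold (9.33 to 12.6). In the same thinned cells without matching the sum was 266 and 20.3 CPM, 13.1-fold lower (11.4 to 15.1).

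Cells of matched maturity still differed in other surface genes. In the summed level this was mostly through Car1, a carbonic anhydrase of colonocytes. The 24 surface colonocyte genes outside the maturity score, Car1 among them, summed to 4677 CPM in control and 1576 in Mettl14_cKO at maturity 0. At 8 or more they summed to 93240 and 42173. Car1 alone had 2100 and 269 CPM at maturity 0 and 68387 and 17840 at 8 or more. The other 23 summed to 2577 and 1307 at maturity 0, and to 24853 and 24333 at 8 or more. Near-equal sums do not mean equal genes: at 8 or more Lypd8 had 12140 and 6280 CPM and Saa1 323 and 1533. At maturity 0 the 14 crypt base and cycling genes summed to 2339 and 1736. The part of these differences in the gasdermin C difference was not tested.

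Most goblet-like clusters held few gasdermin C UMIs, with cluster 17 of the control as an exception, so the cells were also split by their mucus genes. The split was chosen after the data were seen. Cells with under 15 UMIs per 2000 from Muc2, Fcgbp, Clca1, Zg16, Tff3, Spink4 and Agr2, and under 3 from enteroendocrine genes, made up 43.4% of control (3311) and 45.0% of Mettl14_cKO cells (2341). A total of 261 control and 248 Mettl14_cKO cells had 10 to 19 mucus UMIs, around the cut.

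In the control cells with few mucus genes the Gsdmc sum was hump-shaped along maturity. It was 339 CPM at maturity 0 (319 to 361), 688 at 1 (635 to 745) and 906 at 2 to 3 (838 to 978). It was still 818 at 4 to 7 (761 to 877) and only 426 at 8 or more (386 to 469). The maximum was 2.67 times the lowest range (2.42 to 2.95) and 2.13 times the highest (1.88 to 2.41). At the maximum 60.8% of cells had a Gsdmc UMI and 11.2% had 5 or more, against 31.7% and 2.87% at maturity 0. The shape did not rest on Guca2a, which goblet cells also make: without it in the score, the sum was 442, 914, 800, 481 and 397 CPM in the same cells.

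Mucus-rich or enteroendocrine control cells had 55.3 to 79.5 CPM across the 5 ranges, and each interval overlapped that of T or NK-like cells (37.4 to 72.5). Each was also above the 17.6 CPM of control cluster 0 (15.8 to 19.5). These levels are averages over unlike cells. At full depth the highest 10% of the mucus-rich or enteroendocrine control cells held 87.0% of their Gsdmc UMIs. Goblet-like cluster 17 had 287 CPM (276 to 299). In Mettl14_cKO cells with few mucus genes the sum was 35.5, 59.4, 64.5, 37.5 and 25.9 CPM from the lowest to the highest range, 9.56-fold to 21.8-fold below the matching control ranges. This maximum was also at 2 to 3, at 1.82 times the lowest range (1.01 to 3.07) and 2.49 times the highest (0.714 to 13.4). The log2 difference at matched maturity in these cells was -3.59 (-3.82 to -3.36). The 23 surface genes besides Car1 also differed in cells with few mucus genes. They summed to 3310 CPM in control and 1274 in Mettl14_cKO at maturity 0, and to 26010 and 25155 at 8 or more.

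**Figure D1:**
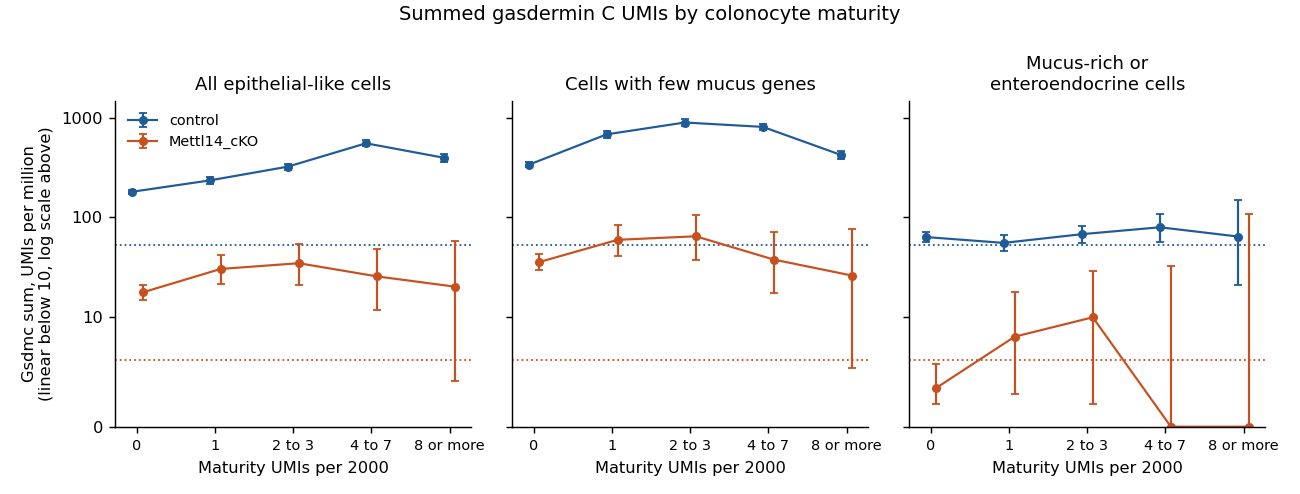
Summed UMIs of Gsdmc, Gsdmc2, Gsdmc3 and Gsdmc4 in CPM (vertical axis, linear below 10 and logarithmic above) against maturity range (Krt20, Slc26a3 and Guca2a UMIs per 2000), with 95% Poisson intervals. Dotted lines mark T or NK-like cells of each library (52.8 in control, 6.01 in Mettl14_cKO). Control cells with few mucus genes peak at 906 in the range 2 to 3, and the averages of mucus-rich or enteroendocrine control cells stay near the dotted line.

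The downward limb was also present within the colonocyte-like cells alone, where the control sum was 1455 CPM at maturity 1 (22 cells, 1120 to 1857), 920 at 2 to 3, 684 at 4 to 7 and 321 at 8 or more (284 to 361). The log2 ratio of highest to lowest range, which is 1.14 over all epithelial-like cells, was -2.29 in this class (-2.92 to -1.59). Its lowest range held only 7 control cells, but the fall from maturity 1 to 8 or more does not rest on them. In the Mettl14_cKO library the same class went from 113 CPM at maturity 0 (83.6 to 148) to 36.2 at 8 or more (11.8 to 84.6). The class came from different clusters in each library, cluster 7 in control and cluster 13 in Mettl14_cKO.

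Gsdmc4 carried most of the control signal at every maturity. In control epithelial-like cells it stood at 128, 171, 227, 412 and 308 CPM from the lowest to the highest range, and in Mettl14_cKO at 4.84, 5.43, 5.45, 11.3 and 6.67, each of the last 4 from 7 or fewer UMIs. Its level at matched maturity was 31.2-fold lower in Mettl14_cKO (23.3 to 41.9), a log2 difference of -4.96. That size was not stable: it was -4.05 with another random seed and -3.85 with a stricter cell filter, and at full depth without matching Gsdmc4 was 20.7-fold lower (19.4 to 22.1). Gsdmc2 had 37.7, 49.7, 80.8, 122 and 77.1 CPM in control and 7.57, 12.4, 18.2, 8.47 and 13.3 in Mettl14_cKO, 5.25-fold lower when matched (4.15 to 6.63). Gsdmc3 was the least unequal, with 14.8, 14.3, 17.6, 24.5 and 14.3 in control and 5.09, 12.4, 10.9, 5.65 and 0 in Mettl14_cKO, 2.33-fold lower when matched (1.74 to 3.11). In colonocyte-like cells alone Gsdmc3 had a log2 difference of 0.56 (-0.42 to 1.54), so its direction was not settled in that class. Over all epithelial-like cells its log2 difference was -1.22 (-1.64 to -0.80), and it was -0.95 at 1000 UMIs per cell, -2.15 with a stricter cell filter and -2.39 with free RNA subtracted. Gsdmc4 and Gsdmc2 were at least 2-fold lower at matched maturity, where 4.60% of 4326 genes with at least 25 CPM were. Gsdmc3 was under that minimum, and its interval reached below 2-fold.

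**Figure D2:**
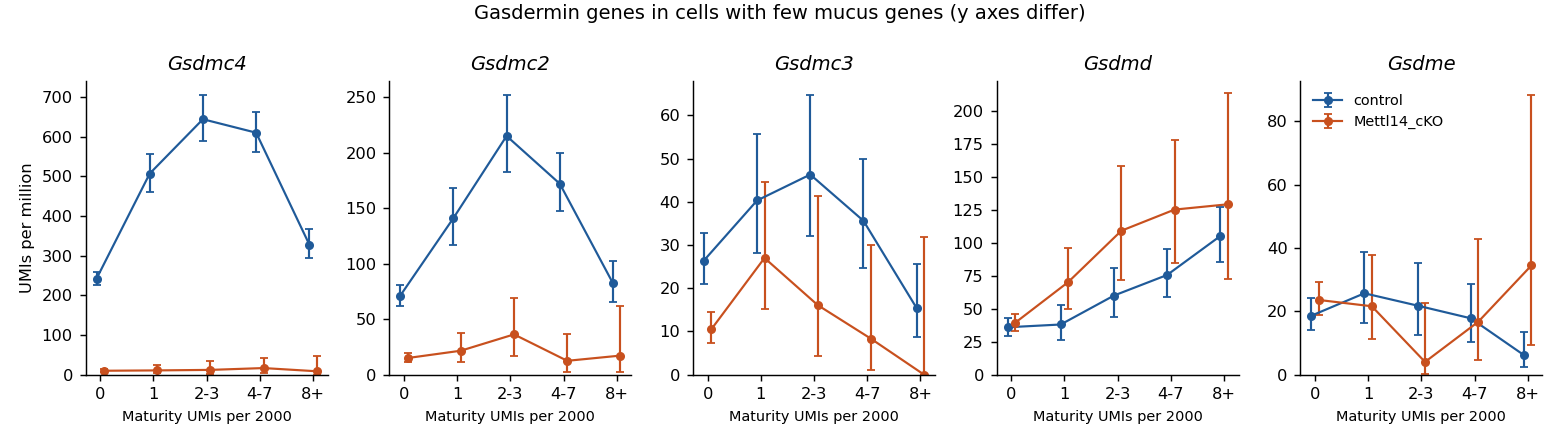
CPM (vertical axes, which differ between panels) against maturity range for 5 gasdermin genes in cells with few mucus genes, with 95% Poisson intervals. Gsdmc4, Gsdmc2 and Gsdmc3 peak in the middle ranges of the control (blue), and Gsdmd is highest in the highest range in both libraries.

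The C genes thus differed in their mix as well as their sum. Of 35795 UMIs from Gsdmc2, Gsdmc3 and Gsdmc4 in control cells, Gsdmc4 had 71.9% (71.4 to 72.4), Gsdmc2 22.1% and Gsdmc3 6.00%. Of 2325 in Mettl14_cKO cells, Gsdmc4 had 40.8% (38.8 to 42.8), Gsdmc2 36.9% and Gsdmc3 22.3%. The intervals of these shares take each UMI as independent. As the highest 1% of Mettl14_cKO cells held 49.8% of the UMIs, they are too narrow to cover the spread between cells. Along control maturity the Gsdmc3 share went from 7.88% (7.38 to 8.40) at maturity 0 to 3.18% (2.56 to 3.91) at 8 or more. In Mettl14_cKO the Gsdmc4 share was 32.1% at maturity 1 (27.6 to 36.8) and 60.5% at 4 to 7 (52.8 to 67.7).

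The mix also differed between clusters of 1 library. In Mettl14_cKO the colonocyte-like cluster 13 had 27.1% Gsdmc4 (24.4 to 29.9). Cluster 11, whose leading genes include Ggh and the distal colon factor Hoxb13, had 72.0% (67.4 to 76.2), against 78.1% in its control cells (76.8 to 79.3). Cluster 11 was low in Gsdmc2 in both libraries, at 13.7% in control and 17.1% in Mettl14_cKO. In control, cluster 5 had 68.3% Gsdmc4 and 25.3% Gsdmc2.

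**Figure D3:**
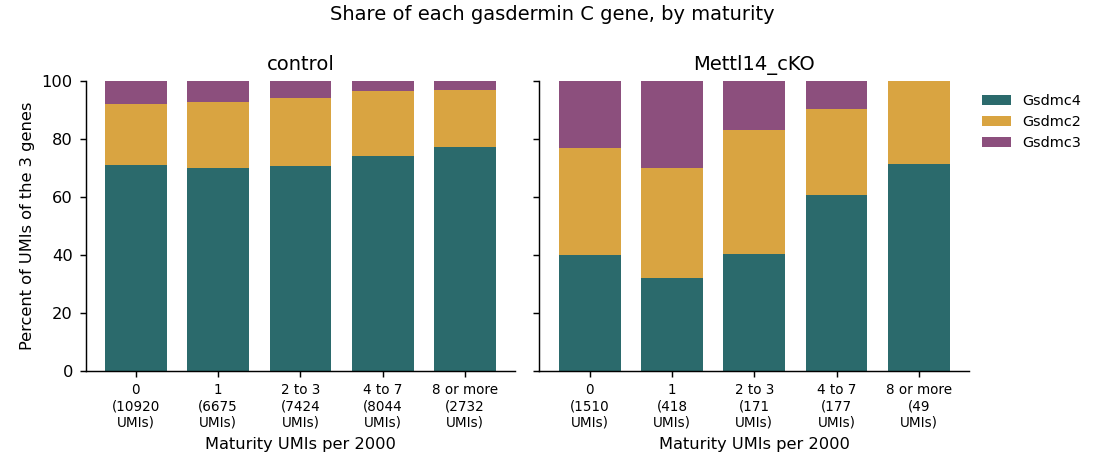
Share of each gene among the UMIs of Gsdmc4, Gsdmc2 and Gsdmc3 (vertical axis, percent) by maturity range in epithelial-like cells at full depth, with the number of UMIs under each bar. Gsdmc4 makes 69.9% to 77.3% of control bars and 32.1% to 71.4% of Mettl14_cKO bars, the last of which rests on 49 UMIs.

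By cluster, built without the gasdermin genes, 4 groups of control cells held the highest Gsdmc sums. Cluster 25 (78 cells, led by Tgm3 and Saa1) had 1235 CPM (1167 to 1305), cluster 5 (909 cells, led by the antimicrobial lectins Reg3b and Reg3g) 958 (941 to 974), the colonocyte-like cluster 7 (854 cells) 851 (834 to 869) and cluster 11 (502 cells) 756 (733 to 779). Cluster 11 had only 7.58 CPM of Krt20, against 1759 in cluster 7, so high gasdermin C was not limited to cells with high Krt20. Cycling-like control cells had 229 CPM in cluster 4 (221 to 238) and 66.9 in the mucus-rich cluster 6 (63.0 to 70.9). Goblet-like clusters 10 and 16 had 21.2 and 42.4, at or below the T or NK-like level. Goblet-like cluster 17, with a Hoxb13 level of 340 CPM, had 287 (276 to 299).

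The Mettl14_cKO clusters were lower throughout. Its most numerous epithelial-like clusters, 1, 2 and 3, had 4.21, 11.1 and 2.66 CPM of the Gsdmc sum, and the colonocyte-like cluster 13 had 96.3 (90.6 to 102). The highest value was in 32 cells of cluster 5, a cluster made mostly of control cells, at 352 CPM (303 to 406). Those 32 cells held 188 of the 2347 Gsdmc UMIs of Mettl14_cKO epithelial-like cells. In cluster 11, the one high cluster with many cells of both libraries, the sum was 756 in control and 64.8 in Mettl14_cKO (58.7 to 71.3).

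**Figure D4:**
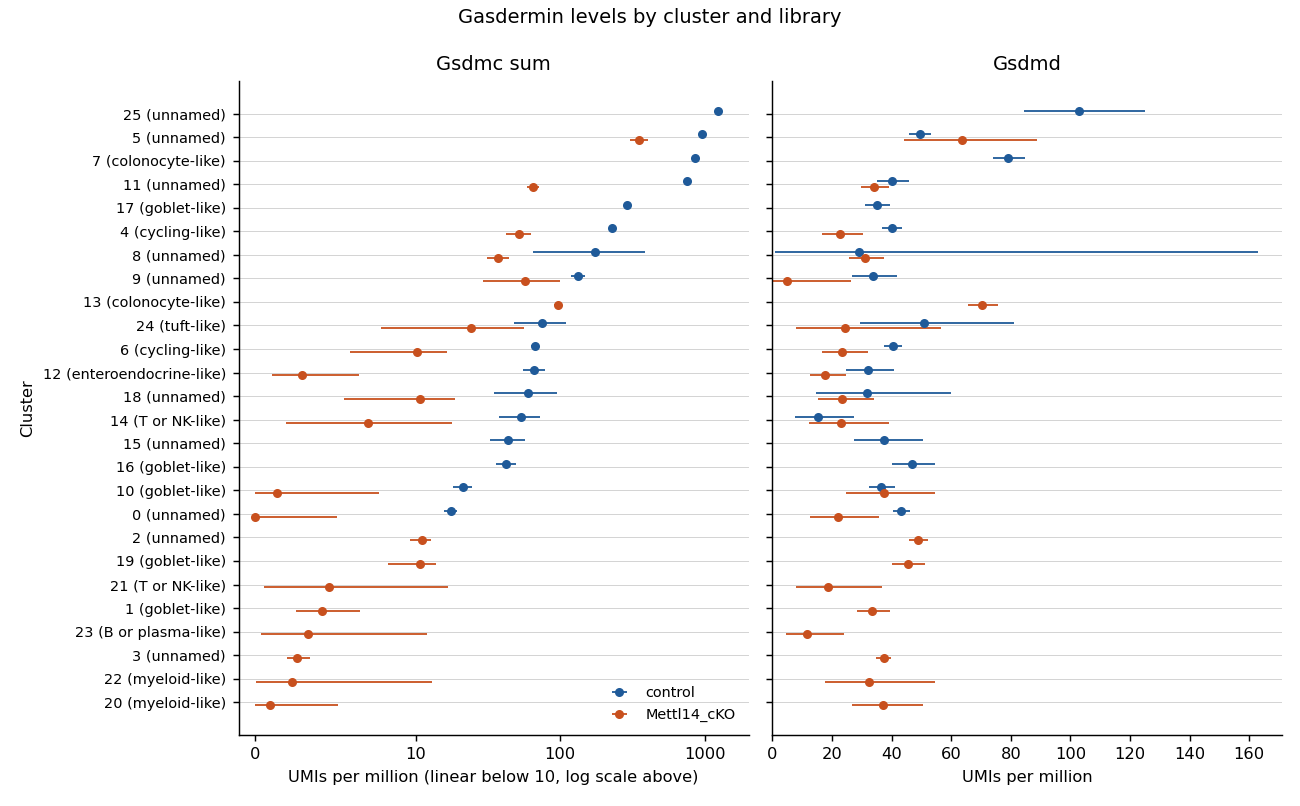
CPM (horizontal axes; left, Gsdmc sum, linear below 10 and logarithmic above; right, Gsdmd, linear) for each cluster with at least 20 cells of a library, with 95% Poisson intervals. The Gsdmc sum spans from 17.6 to 1235 among control epithelial-like clusters, while Gsdmd in control clusters lies between 15.4 and 103.

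Low-maturity cells were split further to see which carried gasdermin C. Among control cells with few mucus genes and maturity 0, those with at least 3 UMIs of cycling genes had 166 CPM (149 to 185) and those with fewer had 663 (615 to 713). Those with a Hoxb13 UMI had 683 (612 to 761) and the others 275 (255 to 296). At maturity 4 or more, cells with and without a Hoxb13 UMI had 676 (501 to 891) and 618 (582 to 655), which do not differ beyond their intervals. Mettl14_cKO cells of maturity 0 followed the same order at lower levels, with 19.0 in cycling and 58.4 in non-cycling cells, and 70.6 with and 31.6 without a Hoxb13 UMI.

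Gasdermin C RNA was uneven between cells. At full depth the highest 10% of control epithelial-like cells held 76.1% of the Gsdmc UMIs, and 1 cell had 287. Among Mettl14_cKO cells 9.79% had any Gsdmc UMI, and the highest 1% held 49.8%. The C genes were found together: of 1145 control cells with few mucus genes and a Gsdmc4 UMI at the common depth, 32.2% also had Gsdmc2 (29.5 to 35.0), against 7.16% of the other cells (6.11 to 8.32). Reads split between such similar genes could add to this overlap, and their part was not tested. Gsdmd showed no such tie in control, at 10.4% (8.69 to 12.3) and 9.70% (8.48 to 11) in the same groups. In Mettl14_cKO 10 of the 40 such cells with a Gsdmc4 UMI also had Gsdmd (25%, 12.7 to 41.2), against 9.43% of the others (8.27 to 10.7).

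Gsdmd followed maturity in both libraries. In control it stood at 36.7 CPM at maturity 0 (32.4 to 41.4), 38.9 at 1, 49.8 at 2 to 3, 61.9 at 4 to 7 and 104 at 8 or more (85.2 to 125). In Mettl14_cKO it stood at 38.0 (33.8 to 42.5), 45.7, 76.4, 105 and 120 (71.1 to 190). The highest range was 2.83 times the lowest in control and 3.16 times in Mettl14_cKO, and no downward limb was seen. At matched maturity Gsdmd was at 42.9 CPM in control and 51.0 in Mettl14_cKO, a log2 difference of 0.25 (0.07 to 0.43). The interval included 0 with another random seed (0.11, -0.07 to 0.30), at 1000 UMIs per cell (0.05, -0.21 to 0.30) and in colonocyte-like cells alone (-0.17, -0.90 to 0.56), so no difference in Gsdmd was settled. The genes most like Gsdmd were surface genes (Krt20 and Cyp2c55 among the highest 5 in control, Car4 and Saa1 in Mettl14_cKO), but no correlation exceeded 0.13 over 7630 and 5201 cells, too weak to be a finding in sparse counts.

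Gsdme, which turns caspase-3 activity into pore formation, was broad and low. In control it was 20.2 CPM at maturity 0 (17.1 to 23.8), 28.4 at 1, 33.9 at 2 to 3 (26.9 to 42.2), 23.8 at 4 to 7 and 7.62 at 8 or more (3.29 to 15), where 8 UMIs were found in 525 cells. Its control maximum was 4.45 times the highest range (2.16 to 10.7). The log2 ratio of highest to lowest range was -1.41 (-2.65 to -0.39), but -0.27 at 1000 UMIs per cell (-1.18 to 0.53), -0.25 with no doublets removed (-1.02 to 0.44) and -0.41 with a stricter cell filter (-1.31 to 0.39), so the fall depended on these settings. In Mettl14_cKO the levels were 23.5, 21.7, 23.6, 14.1 and 26.7, the last from 4 UMIs, and no order was detectable. At matched maturity Gsdme was 22.7 CPM in both libraries, with an interval of -0.25 to 0.25 on the log2 difference. In colonocyte-like cells alone that difference was 0.98, with a lower bound of 0.01.

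Gsdma sat almost entirely in enteroendocrine-like cells, the hormone-making cells of the epithelium. These cells form cluster 12 in both libraries, which the markers Chga, Chgb, Neurod1, Tph1, Pyy and Gcg define. They held 80.5% of the 41 Gsdma UMIs in control (65.1 to 91.2) and 96.5% of the 434 in Mettl14_cKO (94.4 to 98.1). At the common depth 11 of 189 control enteroendocrine-like cells (5.82%, 2.94 to 10.2) and 111 of 299 in Mettl14_cKO (37.1%, 31.6 to 42.9) had a Gsdma UMI. Outside them 0 of 7441 control cells and 3 of 4902 Mettl14_cKO cells had one, and T or NK-like cells had none in either library. By maturity range, Gsdma in Mettl14_cKO epithelial-like cells was 8.19, 32.6, 92.7, 70.6 and 0 CPM. Krt20, part of the score, was at 339 CPM in the control cells of cluster 12 and 403 in its Mettl14_cKO cells. In the colonocyte-like clusters 7 and 13 it was at 1759 and 298. Enteroendocrine-like cells can therefore also score as mature.

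The Gsdma level in enteroendocrine-like cells was 39.7 CPM in control (22.2 to 65.5) and 303 in Mettl14_cKO (260 to 350), 7.63-fold higher (4.50 to 13.9). At full depth it was 16.5 (11.3 to 23.1) and 208 (188 to 229), 12.6-fold higher (8.85 to 18.6), and at 5000 UMIs per cell the log2 difference was 4.24 (2.98 to 5.89). Cells with a UMI of Tph1, the serotonin-synthesis enzyme of enterochromaffin cells, had 68.6 (37.5 to 115) and 397 (338 to 462). Cells without one had 5.75 (0.146 to 32.0) and 87.9 (50.2 to 143). A Tph1 UMI was present in 54.0% of control (46.6 to 61.2) and 69.6% of Mettl14_cKO enteroendocrine-like cells (64.0 to 74.7). Other genes of the cluster also differed, not all in the same direction. At full depth Chgb was at 10912 and 32789 CPM, Neurod1 at 213 and 850, Pyy at 28524 and 65053, Tph1 at 2075 and 2459, and Gcg at 16871 and 12837. Their part in the Gsdma difference was not tested. The genes most like Gsdma were Pcsk1n, Resp18, Tph1, Chga and Chgb in control (r 0.30 to 0.38) and Chga, Tph1, Pcsk1n, Chgb and Neurod1 in Mettl14_cKO (r 0.56 to 0.60), across cells that share library and depth.

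Among 4241 genes ranked in control epithelial-like cells, the 20 most like the Gsdmc sum had correlations of 0.33 to 0.48. These are Pearson's r of log UMIs over 7630 cells thinned to the same depth, given as a description. The highest were Hao2, a peroxisomal hydroxyacid oxidase (0.48), and Selenbp1, a methanethiol oxidase (0.45). Next came 2610528A11Rik, which encodes a ligand of the receptor GPR15 (0.43), the keratin Krt19 (0.43), the galectin Lgals3 (0.42) and the glutathione transferase Mgst3 (0.40). Krt8, AA467197, the carbonic anhydrase Car2 and Lypd8, a surface protein that keeps flagellated bacteria off the colon epithelium, had 0.37 to 0.39. Prdx6, Ethe1, Akr1c19, Car1, Il18, Cox5a, Sult1a1, Mgat4c, Lgals4 and Fgfbp1 completed the 20, at 0.33 to 0.36. The maturity genes themselves were less like it, at 0.22 for Slc26a3, 0.13 for Krt20 and 0.10 for Guca2a.

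The 5 genes least like the sum were Spink4 and Agr2 (-0.38 each), Muc2 (-0.35), Klk1 (-0.31) and Selenom (-0.30), of which Muc2, the gel-forming mucin, Agr2 and Spink4 are genes of mucus-making cells. After each value was centred on its maturity range, the highest 10 were all among the 20 above, led by Hao2 (0.46), Selenbp1 (0.45) and Lgals3 (0.43). Centred and within cells with few mucus genes, the highest 10 were Lgals4 (0.35), Hao2 (0.34), Car2, Selenbp1, Krt19, Areg, Sat1, Il18, Krt8 and S100a6 (0.26 to 0.29), of which 7 were among the 20. In Mettl14_cKO the 20 had r values of at most 0.17, apart from Hao2, Il18 and Sult1a1, which were under the minimum level for ranking there. Only 3.11% of Mettl14_cKO cells had a Gsdmc UMI at the common depth, against 22.4% of control cells. Counts this sparse can lower r, so the r values of the libraries cannot be compared directly.

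These co-expressed genes did not all go with gasdermin C in Mettl14_cKO. At matched maturity 7 of the 20 were at least 2-fold lower and 0 at least 2-fold higher, where 4.60% and 5.22% of all 4326 genes were. Their median log2 difference was -0.69, against -0.09 over all genes. The 20 were picked among genes with at least 25 CPM in control cells, and the 4326 by the mean of both libraries. Picking by control level can favour genes that are lower in Mettl14_cKO, and its part in the count was not tested. The 7 were the xenobiotic sulfotransferase Sult1a1 (197 and 12.2 CPM), Hao2 (200 and 14.8), Selenbp1 (517 and 51.0), Il18 (72.7 and 18.7), Car1 (9397 and 2695), Akr1c19 (160 and 55.1) and Lypd8 (2299 and 1092). Others with as high an r were near level, such as Lgals3 at 1456 and 1413 and Ethe1 at 676 and 671, while Car2 was at 513 and 746, 1.45-fold higher. In cells with few mucus genes 9 of the same 20 were at least 2-fold lower, where 5.07% of 4179 genes were, with Mgat4c and Fgfbp1 added.

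**Figure D5:**
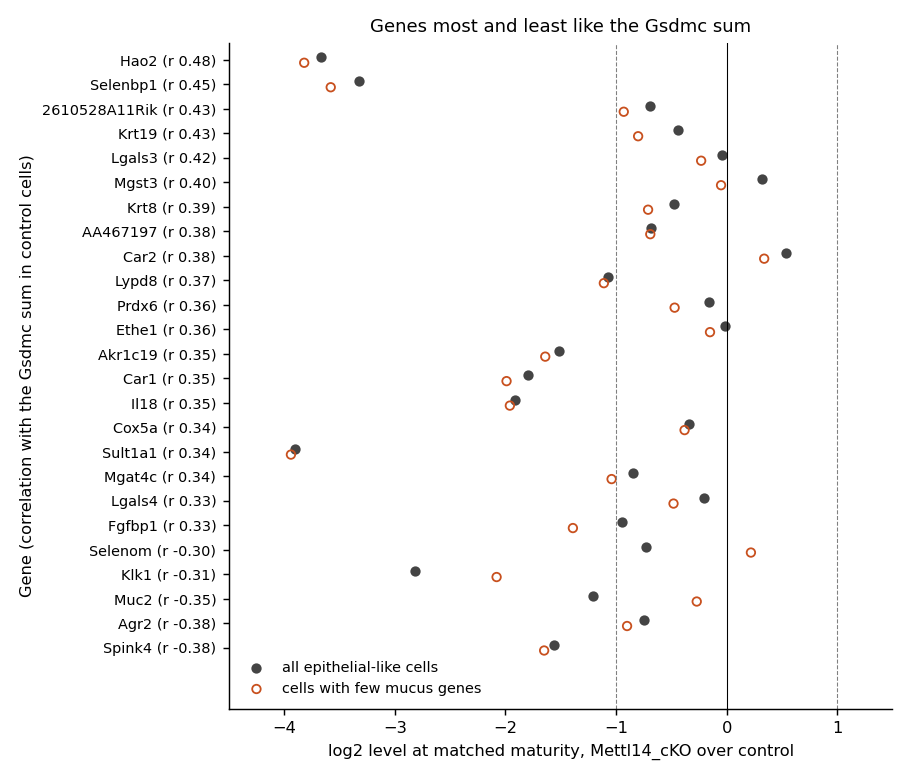
The log2 level at matched maturity, Mettl14_cKO over control (horizontal axis, dashed lines at 2-fold), for the 20 genes most like the Gsdmc sum in control cells and the 5 least like it, with r in brackets. Filled points are all epithelial-like cells and open points cells with few mucus genes; Hao2, Selenbp1 and Sult1a1 lie below -3 while Lgals3, Ethe1 and Mgst3 lie within 0.4 of 0.

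Genes from 6 lists were read at matched maturity. The lists hold activating proteases, inflammasome and pyroptosis genes, IL-4 and IL-13 signalling, surface colonocyte genes, crypt base and cycling genes, and epithelial transcription factors. Over all genes 4.60% were at least 2-fold lower and 5.22% at least 2-fold higher, with a median log2 difference of -0.09. Of 11 proteases that can cut gasdermins, 6 reached 25 CPM, 1 was at least 2-fold lower and 0 higher. Their median log2 difference was -0.59, and -0.34 in cells with few mucus genes. Casp1, which cuts Gsdmd, had 102 and 45.9 CPM. Casp8, which can cut gasdermin C in human cells, had 51.7 and 40.6, and Casp6 had 47.4 and 27.7. Of 15 inflammasome and pyroptosis genes 6 reached that level, 2 were lower and 2 higher (median 0.10). The adaptor Pycard had 706 and 588, the cytokine Il18 72.7 and 18.7, the sensor Nlrp6 49.4 and 15.8, and Ninj1, which ruptures the plasma membrane after pore formation, 49.3 and 112. The other higher gene, the sensor subunit Naip1, was 2.03-fold higher over all epithelial-like cells and 1.39-fold in cells with few mucus genes.

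Of 8 genes of IL-4 and IL-13 signalling 3 reached the level and 0 passed 2-fold: Retnlb, a goblet cell target of these cytokines, had 1132 and 2157 CPM, Jak1 51.1 and 39.5, and Il13ra1 38.5 and 36.1. Retnlb went both ways along maturity, with 948 and 2844 CPM at 0, 1632 and 1682 at 1, 1894 and 771 at 2 to 3, and 1052 and 302 at 4 to 7. Of 24 surface colonocyte genes outside the score 20 reached it, 4 lower and 6 higher (median -0.07). The 4 lower genes, Car1, Lypd8, Sult1a1 and Hao2, are also among the 7 lower co-expressed genes above, as is Il18, so these counts overlap. Car1 had 9397 and 2695, Lypd8 2299 and 1092, Ceacam1 405 and 398 and Cyp2c55 340 and 184. Surface genes on the higher side included Car4 (38.5 and 131), Clca4b (1.10 and 102) and Saa1 (27.5 and 232). Of 14 crypt base and cycling genes 8 reached it, with 3 lower (Top2a, Stmn1 and Ube2c) and 0 higher (median -0.32). Hmgb2 had 550 and 504 CPM, Stmn1 359 and 175 and Tubb5 262 and 257. In cells with few mucus genes 1 of 10 was lower, and Top2a, Stmn1 and Ube2c were 1.92-fold, 1.87-fold and 1.99-fold lower. Of 15 epithelial transcription factors 11 reached it, with 1 lower, Klf6 (454 and 215), and 0 higher (median -0.24), while Klf5 had 348 and 286, Elf3 282 and 195 and Klf4 223 and 205. In cells with few mucus genes Klf6 was 1.92-fold lower and 0 of 9 factors passed 2-fold.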

How the data were processed

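Deposited values were raw UMI counts per gene and cell barcode, which the authors made with Cell Ranger (3.0.0 per the submitters' processing notes, 3.1.0 per the file headers); the notes also list Seurat 3. The cell filter asked for 500 genes and under 25% of UMIs from mitochondrial genes, and a Scrublet score of 0.25 or more removed doublets (77 control, 53 Mettl14_cKO), leaving 9077 and 7072. Leiden clustering (scanpy 1.11.5, leidenalg 0.10.2; 2000 variable genes, 30 components, 15 neighbours, resolution 1) gave 27 clusters of both libraries together. Gasdermin, mitochondrial, ribosomal protein, Y chromosome genes, Mettl14, Xist and Tsix were left out of the variable genes. A cluster was called like a class with at least 3 of its markers in the leading 50 genes and 1 in the leading 10. Clusters with Epcam at 50% or more of the median over clusters counted as epithelial-like.

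Counts were summed over cells. Levels have exact Poisson intervals, ratios conditional binomial ones and shares Clopper-Pearson ones, each at 95%. Each cell was thinned to 2000 UMIs. Matched levels weight the maturity ranges by the mean of both libraries' shares. Differences of all genes added 1 CPM, and genes needed a mean of 25 CPM over both libraries. For the ranking by likeness they needed 25 CPM in the library ranked. The ranking for likeness left out mitochondrial, ribosomal protein, gasdermin and Y chromosome genes, Xist and Tsix. The 7 members are named always, with the 20 genes most and 5 least like the Gsdmc sum and the 10 highest within maturity ranges. From each list the highest by control level are named. Car4, Clca4b, Saa1, Naip1, Top2a, Ube2c and the genes of the added ranking were named after their values were seen. The same holds for the genes of IL-4 and IL-13 signalling under 25 CPM. Members and lists were chosen with earlier results of these data known, and cluster rules, the doublet score and the mucus split were set after the data were seen. The matching was tested on simulated data. Alternatives changed depth, score, cells, filters, doublets, free RNA and seed.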

Additional observations from a re-analysis of the deposited data

How the results depend on the processing

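The lower Gsdmc sum in Mettl14_cKO kept its direction under all 15 alternatives. Its log2 difference at matched maturity was -3.44 and became -3.16 at 1000 UMIs per cell, -3.09 at 5000, -3.11 without goblet-like, enteroendocrine-like and tuft-like cells and -3.19 with no doublets removed. In the most mature range it was -4.32, and -1.63 without Guca2a in the score (-1.67 in cells with few mucus genes), on 1 Mettl14_cKO UMI each.

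The control ratio of highest to lowest maturity (log2 1.14) was 0.85 without Slc26a3, 0.70 without goblet-like, enteroendocrine-like and tuft-like cells, 0.92 with a lenient cell filter, 1.44 with free RNA subtracted, 0.95 with another random seed and 0.33 in cells with few mucus genes. It turned to -2.29 in colonocyte-like cells and to -0.15 in cells with few mucus genes without Guca2a. The Mettl14_cKO ratio (0.19, interval -2.10 to 1.77) was 2.68 without Guca2a, -0.13 at 5000 UMIs, -1.64 in colonocyte-like cells, -0.48 with no doublets removed and -0.46 in cells with few mucus genes.

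The count of co-expressed genes at least 2-fold lower (7) was 11 in colonocyte-like cells, where 11% of all genes were, and 5 to 9 otherwise. With free RNA subtracted it was 6, where 17.9% of 1627 genes were. The log2 difference of Gsdmc4 (-4.96) ran from -5.27 in colonocyte-like cells to -3.85 with the strict filter. In colonocyte-like cells Gsdmc3 (0.56) and Gsdmd (-0.17) at matched maturity and the control Gsdmd ratio of maturity ranges (-0.50) changed sign. The Mettl14_cKO Gsdme ratio (0.19) was -1.16 at 1000 UMIs, -1.05 at 5000, -0.23 without Krt20, -0.16 without goblet-like, enteroendocrine-like and tuft-like cells, -0.22 with the lenient filter and -0.49 with another seed. The cause of these changes was not tested.

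Depth limits the Mettl14_cKO values at high maturity, where 75 cells held 3 Gsdmc UMIs. No paired analysis was possible because each genotype had 1 library and no test was made.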
